A study of Mus musculus with 3 samples.

Results

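The CCN genes encode secreted matricellular proteins, and 5 of them (*Ccn1*, *Ccn2*, *Ccn3*, *Ccn4*, and *Ccn5*) are described here. They were matched by symbol among the 32285 genes of the deposited count matrices, and all 5 were found. The cells came from the callus of the fractured femur of C57BL/6 mice that received no treatment, at day 7, day 10, and day 14 after fracture. Each day was 1 droplet library, and the sources used here do not say how many animals each library pooled. Callus was crushed and digested with collagenase, and live cells were sorted as CD45-, CD31-, and TER119-, so hematopoietic, endothelial, and erythroid cells should have been removed. With 1 library a day there is no replicate error. Intervals cover counting error only, no test between days or gates could be made, and day and library cannot be told apart.

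CCN proteins bind matrix, integrins, and growth factors rather than forming scaffold themselves. A full-length member has an insulin-like growth factor binding protein (IGFBP) module, a von Willebrand factor type C module, a thrombospondin type 1 module, and a C-terminal cysteine knot, and CCN5 lacks the cysteine knot. *Ccn1* (*Cyr61*) and *Ccn2* (*Ctgf*) are known as early response genes and as targets of the Hippo effectors YAP and TAZ acting through TEAD factors, and *Ccn2* is needed for cartilage matrix and growth plate ossification. *Ccn3* (*Nov*) is known for opposing BMP signals in skeletal cells, *Ccn4* (*Wisp1*) is a Wnt-induced gene of osteoblast-lineage cells, and *Ccn5* (*Wisp2*) is known from smooth muscle and mesenchymal precursor cells.

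The common ground of the family is its cysteine-rich coding sequence, so the stretch that encodes the glycine- and cysteine-rich signature of the IGFBP module is shown for each member (GENCODE M21 transcripts, GRCm38). Capitals mark the 24 bases of the signature, lower case the 9 bases on either side, each 5′ to 3′ on the coding strand.
Ccn1: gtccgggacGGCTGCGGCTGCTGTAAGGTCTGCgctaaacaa
Ccn2: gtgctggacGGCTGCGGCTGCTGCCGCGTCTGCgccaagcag
Ccn3: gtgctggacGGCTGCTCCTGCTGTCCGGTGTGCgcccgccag
Ccn4: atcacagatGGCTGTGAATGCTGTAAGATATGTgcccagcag
Ccn5: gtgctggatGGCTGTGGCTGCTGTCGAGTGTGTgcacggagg

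All 5 stretches share 13 of the 24 capital bases. *Ccn1* and *Ccn2* share 20 of 24, the closest of the 10 pairs, and *Ccn2* and *Ccn4* share 14, the fewest. The stretch of *Ccn1* (ENSMUSG00000028195) lies at chr3:145649322-145649363 on the minus strand, in exon 2 of 5, and begins its signature at codon 49 of 379. That of *Ccn2* (ENSMUSG00000019997) lies at chr10:24595957-24595998, in exon 2 of 5, from codon 52 of 348. That of *Ccn3* (ENSMUSG00000037362) lies at chr15:54746256-54746297, in exon 2 of 5, from codon 54 of 354. That of *Ccn4* (ENSMUSG00000005124) lies at chr15:66906536-66906577, in exon 2 of 5, from codon 72 of 367. That of *Ccn5* (ENSMUSG00000027656) lies at chr2:163825216-163825257, in exon 3 of 5, from codon 49. *Ccn5* has the shortest coding sequence, 251 codons of which 29 encode cysteine, against 38 to 40 cysteine codons in the other members. That shorter coding sequence goes with the missing cysteine knot module.

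Of the members, the RefSeq promoter table (GRCm38.p6) held *Ccn1*. The 150 bases before its start, chr3:145649986-145650135 on the minus strand, are shown because *Ccn1* is a known YAP/TAZ-TEAD target. Capitals mark the letters CATTCC, a TEAD motif, and TATAAA.
Ccn1 promoter: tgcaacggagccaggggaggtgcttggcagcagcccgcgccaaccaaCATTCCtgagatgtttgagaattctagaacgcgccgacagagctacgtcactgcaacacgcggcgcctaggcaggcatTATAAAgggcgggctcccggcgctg

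The TEAD letters (CATTCC or GGAATG, so both strands) began 103 bases before the start and were held by 7.59% of the 32851 promoter windows of the same length. TATAAA, searched on the coding strand, began 25 bases before the start and was held by 4.84% of them. The AP-1 letters TGACTCA or TGAGTCA, the CRE letters TGACGTCA, and the CArG box were searched on both strands and were not in this window. A match is a run of letters and no measured binding site.

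Cells were grouped by 1 gene at a time. A gate is the set of cells with 0 unique molecular identifiers (UMIs) of *Ptprc*, which encodes CD45, and with at least 3 UMIs and at least 1000 CPM of the gate gene, where CPM is the gene's UMIs as parts per 1000000 of all UMIs. The gate genes were *Aspn* (asporin, of the *Postn*-expressing osteoprogenitors), *Acta2* (smooth muscle actin), *Cnmd* (chondromodulin, of chondrocytes), *Col10a1* (collagen X, of hypertrophic chondrocytes), *Ifitm5* (of mineralizing osteoblasts), and *Rgs5* (of pericytes). At day 10 the gates held 2160, 618, 3204, 867, 78, and 76 cells in that order, and at day 14 they held 4164, 768, 2189, 2128, 271, and 214. In all, 5599 of the 6587 *Ptprc*-negative cells at day 10 and 8102 of 9680 at day 14 fell in a gate, and 1374 and 1542 of them in 2 or more. The overlap was largest between *Aspn* and *Acta2* (452 and 592 cells) and between *Aspn* and *Cnmd* (538 and 383 cells), and 58 of the 76 *Rgs5*-high cells at day 10 were also *Acta2*-high. No doublet caller was run, so some cells of 2 gates may be pairs of cells, which was not tested.

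The gates detected markers of their names, although neighboring gates shared them. *Postn* was 3220 CPM in *Aspn*-high cells at day 10 and 2641 CPM at day 14, and it was higher still in *Acta2*-high cells, 4097 and 3590 CPM. *Col2a1* was 43770 and 36636 CPM in *Cnmd*-high cells, *Ihh* was 572 and 648 CPM in *Col10a1*-high cells, *Bglap* was 7823 and 3296 CPM in *Ifitm5*-high cells, and *Kcnj8* was 146 and 218 CPM in *Rgs5*-high cells. Each marker list below includes its gate gene, so the gate fixes a portion of its sum. The 6 contractile markers summed to 6196 and 6826 CPM in *Acta2*-high cells and to more, 8487 and 7616 CPM, in *Rgs5*-high cells. The 5 markers of the *Aspn* gate summed to 10658 and 10773 CPM there and to 10522 and 11439 CPM in *Acta2*-high cells. The 6 hypertrophic markers summed to 72071 and 76082 CPM in *Col10a1*-high cells and to 69973 and 75804 CPM in *Ifitm5*-high cells, but the listed genes differed. At day 10 *Col10a1* was 18872 CPM in *Col10a1*-high and 651 CPM in *Ifitm5*-high cells, *Ihh* 572 and 35.2 CPM, and *Mmp13* 3634 and 289.7 CPM. The day 7 library stood apart: 6570 of its 7017 cells within the limits carried *Ptprc*, and 107 cells were in a gate, of which 64 were *Cnmd*-high. Day 7 values are therefore given for the *Cnmd* gate, where the summed level of 6 neutrophil markers was 1974 CPM, and otherwise only beside their cell number. That neutrophil sum was 0.719 to 44.6 CPM in the gates at day 10 and 28.7 to 413 CPM at day 14, against 254869 CPM in the 117 of 173 *Ptprc*-positive cells of day 14 that were high for none of the 6 gate genes. These 117 cells are the *Ptprc*-positive cells used below as background. Gated cells had a median of 17567 UMIs at day 10 and 16217 at day 14. The libraries of day 10 and day 14 shared 35 barcodes, 15 of them among gated cells.

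*Ccn1* and *Ccn2* made up most of the CCN transcripts in every gate. *Ccn1* and *Ccn2* were highest in *Col10a1*-high cells, *Ccn3* in *Aspn*-high cells, and *Ccn4* in *Ifitm5*-high cells, at both days. *Ccn5* was highest in *Rgs5*-high cells at day 10, most of them also *Acta2*-high, and in *Acta2*-high cells at day 14. A UMI counts 1 molecule from its 3′ end, so levels of different genes were set beside each other without a correction for length. The 5 members together came to 1063 to 1997 CPM in the gates of day 10 and 613 to 1823 CPM in those of day 14, lowest in *Ifitm5*-high (day 10) and *Rgs5*-high (day 14) cells and highest in *Col10a1*-high cells.

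**Figure D1:**
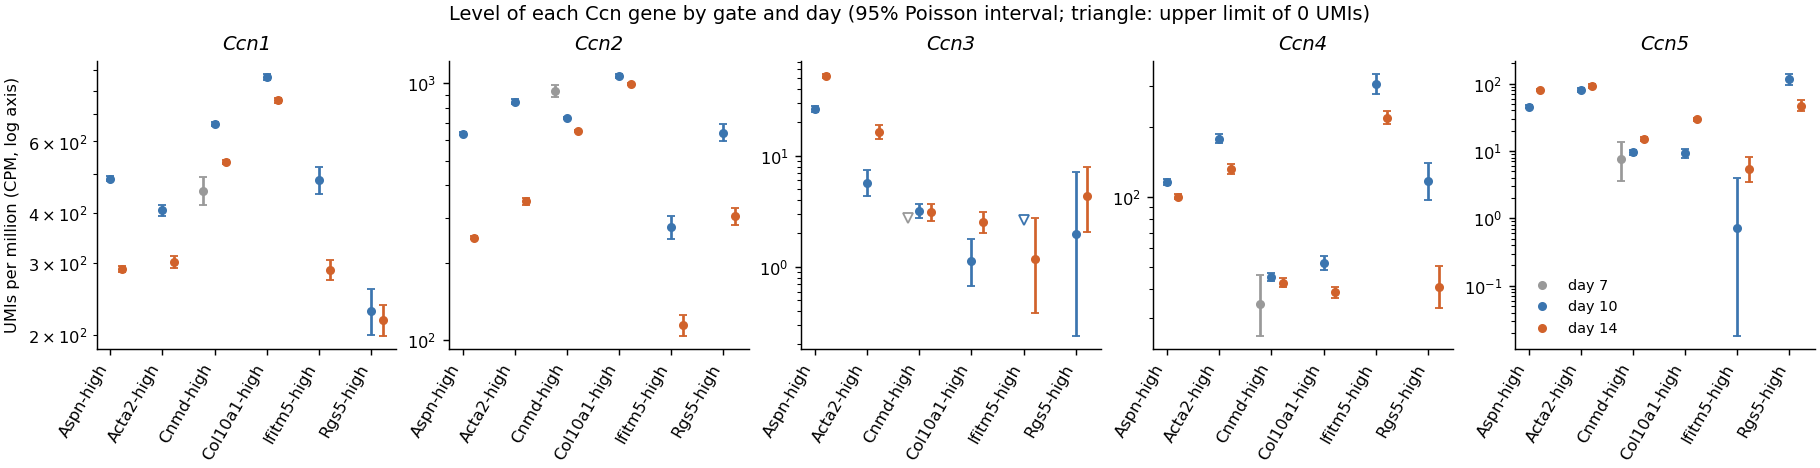
Level of each *Ccn* gene (CPM on a log axis, with 95% Poisson intervals) in the 6 gates, for day 7 (gray, *Cnmd*-high only), day 10 (blue), and day 14 (orange); a triangle is the upper limit where no UMI was counted. *Ccn1* and *Ccn2* peak in *Col10a1*-high cells, *Ccn3* in *Aspn*-high cells, and *Ccn4* in *Ifitm5*-high cells.

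*Ccn1* was 865 CPM (95% CI, 851 to 880) in *Col10a1*-high cells at day 10 and 758 CPM (749 to 767) at day 14. *Cnmd*-high cells were next with 663 and 534 CPM. *Aspn*-high cells had 485 and 291 CPM, *Ifitm5*-high cells 482 and 289 CPM, and *Acta2*-high cells 405 and 303 CPM. The lowest level was that of *Rgs5*-high cells, 228 CPM (200 to 260) and 217 CPM (199 to 237). The intervals of *Aspn*-high and *Ifitm5*-high cells overlapped at both days, so these neighbors in the order did not differ beyond counting error, and at day 14 the interval of *Acta2*-high cells (293 to 313) overlapped both. At day 7, *Ccn1* was 453 CPM (417 to 490) in the 64 *Cnmd*-high cells. After each cell was thinned to 2000 UMIs, *Ccn1* was detected in 64.0% of *Col10a1*-high cells and 29.7% of *Rgs5*-high cells at day 10, and in 57.4% and 25.1% at day 14. In the 117 *Ptprc*-positive cells of day 14, used as background, *Ccn1* was detected in 6.19% after the same thinning and was 73.5 CPM, at a median of 7259 UMIs per cell. Of its 84 UMIs there, 38 were in 1 cell, and whether these cells express *Ccn1* was not tested.

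*Ccn2* was 1070 CPM (95% CI, 1054 to 1086) in *Col10a1*-high cells at day 10 and 995 CPM (984 to 1005) at day 14, the highest level of any member in any gate of those days. Its second place differed by day. At day 10 *Acta2*-high cells followed with 850 CPM, then *Cnmd*-high cells with 734 CPM, *Rgs5*-high cells with 642 CPM, *Aspn*-high cells with 638 CPM, and *Ifitm5*-high cells with 275 CPM. The intervals of *Rgs5*-high (594 to 694) and *Aspn*-high cells (629 to 646) overlapped. At day 14 *Cnmd*-high cells followed with 651 CPM, then *Acta2*-high cells with 348 CPM, *Rgs5*-high cells with 303 CPM, *Aspn*-high cells with 251 CPM, and *Ifitm5*-high cells with 114 CPM. At day 7 it was 936 CPM (885 to 990) in *Cnmd*-high cells. Of the 647 *Ccn2* UMIs of *Rgs5*-high cells at day 10, 619 were in the 58 cells that were also *Acta2*-high. The other 18 cells, too few for a comparison, held 28 UMIs. With the cells of both gates left out at day 14, *Ccn2* was 356 CPM in 648 *Acta2*-high cells and 324 CPM in 94 *Rgs5*-high cells (log2 ratio 0.14, -0.03 to 0.31). *Ccn2* was unevenly spread among *Rgs5*-high cells: at day 10 the 10% of cells with the most held 72.3% of its UMIs, and 107 of 647 UMIs came from 1 cell. In *Col10a1*-high cells the highest 10% held 34.1%, and 66.8% of the cells carried a UMI after thinning. In the 117 *Ptprc*-positive cells of day 14, *Ccn2* was detected in 8.85% after thinning. Its level there was 66.5 CPM (52.4 to 83.3), beside the 114 CPM of *Ifitm5*-high cells of that day.

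The ratio of *Ccn2* to *Ccn1* differed between gates. At day 10 it was 2.81 (95% CI, 2.42 to 3.28) in *Rgs5*-high cells, 2.10 (2.02 to 2.18) in *Acta2*-high cells, 1.31 in *Aspn*-high cells, 1.24 in *Col10a1*-high cells, 1.11 in *Cnmd*-high cells, and 0.570 (0.502 to 0.648) in *Ifitm5*-high cells. At day 14 it was 1.39 (1.24 to 1.56) in *Rgs5*-high cells, where 1 cell gave 119 of the 702 *Ccn2* UMIs, 1.31 (1.29 to 1.33) in *Col10a1*-high cells, 1.22 (1.20 to 1.24) in *Cnmd*-high cells, and 1.15 (1.10 to 1.20) in *Acta2*-high cells. The interval of *Rgs5*-high cells overlapped those of *Col10a1*-high and *Cnmd*-high cells, and those of *Cnmd*-high and *Acta2*-high cells overlapped each other. *Ifitm5*-high cells had the lowest ratio, 0.394 (0.354 to 0.439). *Aspn*-high cells had turned to more *Ccn1* than *Ccn2*, with a ratio of 0.863 (0.844 to 0.882). *Ifitm5*-high cells were the gate in which *Ccn4* outranked *Ccn2*, at both days, although the intervals of the 2 genes (278 to 337 and 248 to 304) overlapped at day 10.

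*Ccn4*, the Wnt-induced member, was 306 CPM (95% CI, 278 to 337) in *Ifitm5*-high cells at day 10 and 218 CPM (205 to 233) at day 14. It made up 28.8% and 34.8% of their CCN transcripts, against 2.12% to 3.42% in the 2 chondrocyte gates (*Cnmd* and *Col10a1*) at both days. *Acta2*-high cells had 178 and 131 CPM, *Aspn*-high cells 116 and 99.7 CPM, and *Rgs5*-high cells 117 and 41.0 CPM. The chondrocyte gates had 45.1 and 42.7 CPM in *Cnmd*-high cells and 51.7 and 38.7 CPM in *Col10a1*-high cells, and at day 14 the interval of *Rgs5*-high cells (33.2 to 50.1) held both. *Ccn4* was evenly spread in *Ifitm5*-high cells, where 89.7% of cells at day 10 and 84.1% at day 14 carried at least 1 UMI as deposited and the highest 10% held 25.1% and 30.8% of the UMIs. After thinning it was detected in 39.0% and 35.7% of them, against 1.77% of the *Ptprc*-positive cells of day 14. Against the other gated cells, the log2 ratio of *Ccn4* in *Ifitm5*-high cells was 2.06 (1.92 to 2.20) at day 10 and 1.68 (1.58 to 1.78) at day 14.

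*Ccn5*, which encodes the member without a cysteine knot, had its highest levels in the *Rgs5*, *Acta2*, and *Aspn* gates. The small *Rgs5* gate held 4.27% and 1.43% of all *Ccn5* UMIs within the limits at day 10 and day 14. At day 10 it was 115 CPM (95% CI, 95.1 to 138) in *Rgs5*-high cells, 79.2 CPM (73.8 to 84.9) in *Acta2*-high cells, and 45.5 CPM (43.3 to 47.9) in *Aspn*-high cells. At day 14 *Acta2*-high cells led with 92.5 CPM (87.0 to 98.2), followed by *Aspn*-high cells with 79.8 CPM (77.5 to 82.1) and *Rgs5*-high cells with 47.0 CPM (38.6 to 56.7). Of the 116 *Ccn5* UMIs of *Rgs5*-high cells at day 10, 110 were in the 58 cells that were also *Acta2*-high and 6 in the other 18 cells. With the cells of both gates left out at day 14, *Acta2*-high cells had more *Ccn5* than *Rgs5*-high cells, 98.3 against 43.7 CPM (log2 ratio 1.17, 0.72 to 1.65). *Ccn5* was lower in the chondrocyte gates, 9.53 and 15.0 CPM in *Cnmd*-high cells and 9.22 and 29.5 CPM in *Col10a1*-high cells. *Ifitm5*-high cells had 1 UMI of *Ccn5* among 78 cells at day 10, and 23 UMIs, or 5.46 CPM, among 271 cells at day 14. Their interval at day 14 (3.46 to 8.19 CPM) held the 4.38 CPM of the *Ptprc*-positive cells of that library. *Ccn5* came from few cells: after thinning it was detected in 12.9% and 11.5% of *Acta2*-high cells, whose highest 10% held 68.8% and 70.8% of its UMIs.

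*Ccn3*, the BMP-opposing member, was the rarest and the most restricted. It was 26.5 CPM (95% CI, 24.8 to 28.3) in *Aspn*-high cells at day 10 and 52.5 CPM (50.6 to 54.3) at day 14. *Acta2*-high cells had 5.73 and 16.3 CPM. The remaining gates lay at 4.31 CPM or less at both days, and *Ifitm5*-high cells had 0 UMIs at day 10, which allows up to 2.65 CPM. *Aspn*-high cells, which were 2160 and 4164 cells, held 73.6% and 91.9% of all *Ccn3* UMIs within the limits of each library. Even there it came from a minority, since after thinning it was detected in 2.74% (2.09 to 3.52) and 7.56% (6.77 to 8.41) of the cells. The highest 10% of *Aspn*-high cells held 96.9% of its UMIs at day 10 and 85.9% at day 14, and 1 cell of day 10 had 78 of 883 UMIs. In *Ptprc*-positive cells of day 14 *Ccn3* was 1.75 CPM (0.212 to 6.32), so its day 14 levels in *Cnmd*-high, *Col10a1*-high, *Ifitm5*-high, and *Rgs5*-high cells were not told apart from that background.

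To set the members against the whole transcriptome, each gate was divided by all other gated cells of its library, and a gene was counted as past 2-fold when the ratio of CPM was at least 2 in either direction. Genes with a mean under 10 CPM over both groups were left out, which at day 10 removed *Ccn3* in the *Acta2*, *Col10a1*, *Ifitm5*, and *Rgs5* gates. Of the remaining 26 gate and member combinations at day 10, 14 were past 2-fold, 7 higher and 7 lower, where 15.9% of all gene and gate combinations were. At day 14, 18 of 30 were past 2-fold, 6 higher and 12 lower, where 14.4% of all combinations were. In 5 of the 14 and 6 of the 18, among them *Ccn3* in the *Aspn* and *Cnmd* gates, the lower of the 2 levels was under 10 CPM. These passed the filter through the group in which they were high, so the counts follow in part from it. The median log2 ratio of the members that passed the filter ran from -1.51 (*Cnmd*) to 1.04 (*Aspn*) at day 10 and from -2.29 (*Ifitm5*) to 0.98 (*Aspn*) at day 14. For all genes tested the gate medians ran from -0.23 to 0.22 and from -0.21 to 0.23. Under the alternative that took the 300 highest cells per gate, the day 10 count was 9 of 25. It cuts the *Aspn*, *Acta2*, *Cnmd*, and *Col10a1* gates of day 10 to fewer cells. It also widens the 2 small gates of that day to cells with less of the gate gene. Which of these changes lowered the count was not tested.

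**Figure D2:**
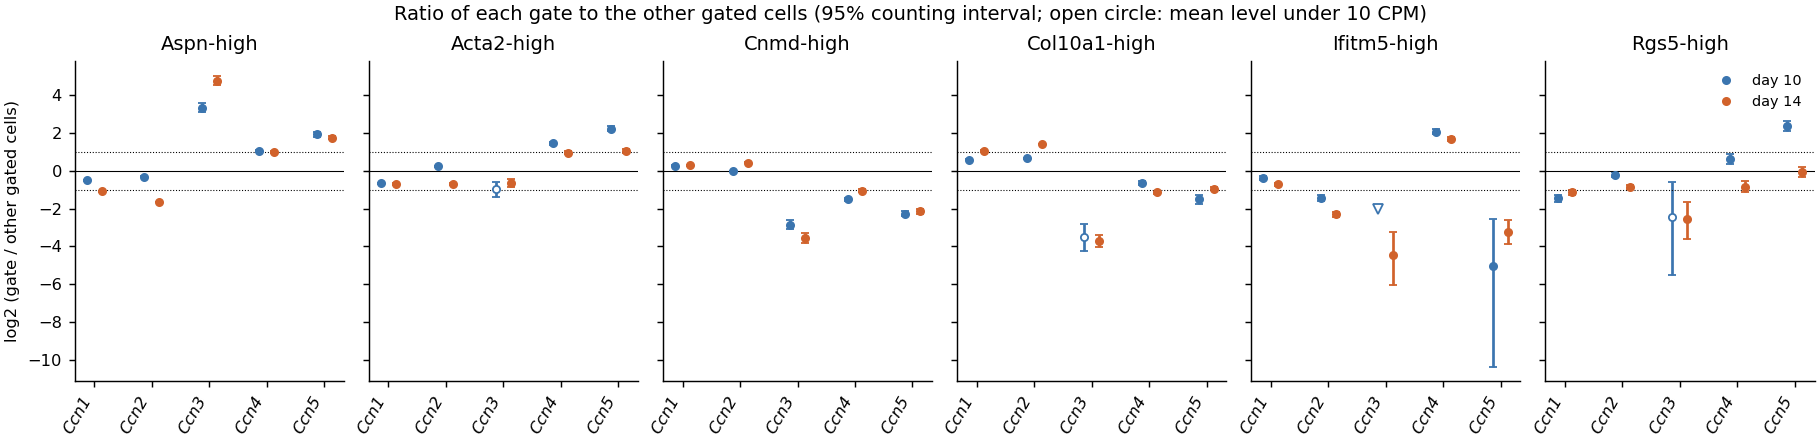
log2 ratio of each *Ccn* gene in a gate over all other gated cells of the same library, with 95% counting intervals, at day 10 (blue) and day 14 (orange); dotted lines are 2-fold, open circles mark a mean under 10 CPM, and a triangle is an upper limit. *Ccn3* in the *Aspn* gate and *Ccn4* in the *Ifitm5* gate lie above the upper line at both days, and *Ccn5* lies below the lower line in the *Cnmd* and *Ifitm5* gates at both days.

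In *Aspn*-high cells, *Ccn3* had log2 ratios of 3.32 (95% CI, 3.08 to 3.56) at day 10 and 4.77 (4.52 to 5.03) at day 14, and *Ccn5* had 1.93 and 1.75. *Ccn4* lay at the limit, 1.04 and 0.98. *Ccn1* and *Ccn2* had -1.09 and -1.65 at day 14, past 2-fold lower, and -0.51 and -0.31 at day 10. These were 3 of 5 members at day 10, where 12.5% of genes were past 2-fold, and 4 of 5 at day 14, where 14.8% were. With the 300 highest cells per gate, the day 10 ratios of *Ccn4* and *Ccn5* were 0.33 and 0.56.

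In *Acta2*-high cells, *Ccn5* had log2 ratios of 2.22 (95% CI, 2.10 to 2.35) at day 10 and 1.04 (0.94 to 1.13) at day 14, and *Ccn4* had 1.45 and 0.96. *Ccn1* was below the other gated cells at both days, at -0.67 and -0.69. *Ccn2* was above them at day 10 (0.23) and below them at day 14 (-0.69). The count was 2 of 4 tested at day 10, where 14.5% of genes were past 2-fold, and 1 of 5 at day 14, where 9.32% were. The day 14 ratio of *Ccn5* was 0.76 as a mean over cells and 0.99 without its highest cell.

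In *Cnmd*-high cells, *Ccn3*, *Ccn4*, and *Ccn5* were all past 2-fold lower at both days. Their log2 ratios were -2.85, -1.51, and -2.28 at day 10 and -3.54, -1.05, and -2.15 at day 14. *Ccn1* and *Ccn2* lay near the other gated cells, at 0.26 and -0.02 at day 10 and 0.29 and 0.41 at day 14. The share of all genes past 2-fold was 13.8% and 11.3%.

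In *Col10a1*-high cells, *Ccn1* had log2 ratios of 0.59 and 1.06 and *Ccn2* of 0.67 and 1.41, so both passed 2-fold at day 14. *Ccn5* was -1.50 at day 10 and -0.94 at day 14, and *Ccn4* was -0.66 and -1.15. *Ccn3*, left out at day 10, was -3.72 at day 14. The count was 1 of 4 tested at day 10, where 11.9% of genes were past 2-fold, and 4 of 5 at day 14, where 14.8% were. Without an upper limit on genes per cell, *Ccn1* and *Ccn4* at day 14 came to 0.98 and -0.92, and within cells of exactly 1 gate *Ccn5* at day 10 came to -0.45.

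In *Ifitm5*-high cells, the members other than *Ccn4* all lay below the other gated cells. *Ccn2* had log2 ratios of -1.44 (95% CI, -1.59 to -1.29) at day 10 and -2.29 (-2.42 to -2.16) at day 14. *Ccn1* was -0.37 and -0.72. *Ccn5* rested on 1 UMI at day 10, for a ratio of 0.0304 (0.000768 to 0.169), and had a log2 ratio of -3.21 at day 14, where *Ccn3* had -4.44 on 5 UMIs. The count was 3 of 4 tested, where 17.7% of genes were past 2-fold, and 4 of 5, where 16.5% were. In *Rgs5*-high cells, *Ccn1* was past 2-fold lower at both days (-1.45 and -1.13), *Ccn5* was past 2-fold higher at day 10 (2.36) and level at day 14 (-0.07), and *Ccn3* was -2.55 on 10 UMIs at day 14. The count was 2 of 4 tested, where 24.5% of genes were past 2-fold, and 2 of 5, where 19.8% were.

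Because gates overlap, cells of 1 gate alone were set beside cells of 2 gates (only cells in no further gate were used in the single groups). From *Cnmd* alone through both to *Col10a1* alone, a series of 2329, 339, and 519 cells at day 10 and 1479, 347, and 1649 cells at day 14, the 2 abundant members increased stepwise. *Ccn1* was 658, 795, and 920 CPM at day 10 and 529, 747, and 771 CPM at day 14. *Ccn2* was 706, 841, and 1252 CPM and 664, 765, and 1070 CPM. The 95% intervals of neighboring steps did not overlap, except for *Ccn1* between both gates (727 to 767) and *Col10a1* alone (761 to 782) at day 14. *Ccn5* instead had its lowest level in the cells of both gates, 7.71, 1.96, and 15.3 CPM at day 10 and 15.1, 5.85, and 34.7 CPM at day 14. *Ccn4* stayed between 32.1 and 55.0 CPM throughout.

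**Figure D3:**
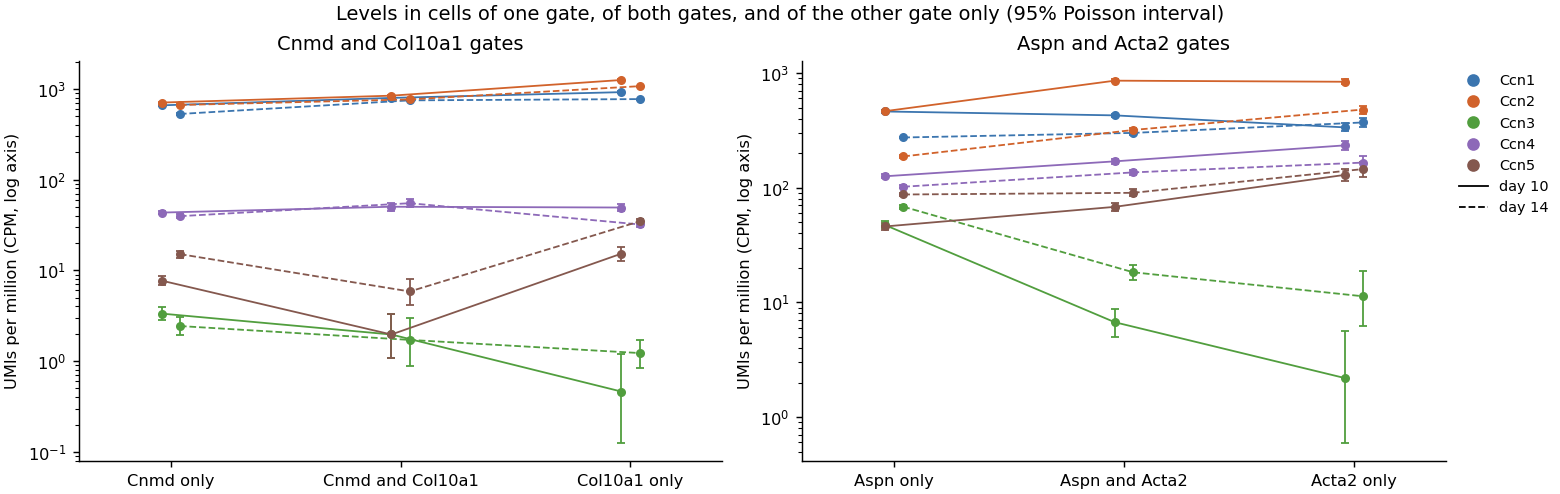
Levels (CPM on a log axis, with 95% Poisson intervals) in cells of 1 gate, of both gates, and of the other gate, for *Cnmd* with *Col10a1* (left) and *Aspn* with *Acta2* (right), at day 10 (solid lines) and day 14 (dashed lines). *Ccn1* and *Ccn2* increase from *Cnmd*-only to *Col10a1*-only cells while *Ccn5* is lowest in the cells of both, and *Ccn3* is lower and *Ccn5* higher toward *Acta2*-only cells.

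The second series, from *Aspn* alone through both to *Acta2* alone, held 1164, 452, and 129 cells at day 10 and 3038, 592, and 95 cells at day 14. *Ccn3* went with *Aspn* alone, at 47.3, 6.71, and 2.19 CPM at day 10 and 68.3, 18.3, and 11.3 CPM at day 14, where the last 2 intervals overlapped at both days. *Ccn5* ran the other way, 45.9, 68.0, and 129 CPM at day 10 and 87.2, 90.2, and 145 CPM at day 14, where the first 2 intervals overlapped. *Ccn4* followed the order of *Ccn5*, with 126, 170, and 234 CPM at day 10 and 102, 136, and 165 CPM at day 14, where the last 2 intervals just overlapped. *Ccn2* was 464 CPM in *Aspn*-only cells and 857 and 839 CPM, with overlapping intervals, in the other groups at day 10, and 187, 319, and 480 CPM at day 14. Cells of both *Acta2* and *Rgs5* (58 and 120 cells) had *Ccn5* at 134 and 49.4 CPM and *Ccn1* at 224 and 162 CPM. In cells high for *Ifitm5* alone (72 and 249 cells), *Ccn2* was 160 and 102 CPM and *Ccn4* 300 and 222 CPM.

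The comparison of day 14 with day 10 within each gate was made over 25 gate and member combinations, and 8 of them were past 2-fold, 2 higher and 6 lower, where 2.05% of all gene and gate combinations were. In the 2 higher ones the level at day 10 was under 10 CPM. They passed the filter through day 14, so the count follows in part from it. *Ccn2* accounted for 4 of the 6 lower ones. It was 2.54-fold lower in *Aspn*-high cells (log2 ratio -1.35, 95% CI, -1.38 to -1.32), 2.44-fold lower in *Acta2*-high cells (-1.29, -1.34 to -1.23), 2.41-fold lower in *Ifitm5*-high cells (-1.27, -1.47 to -1.07), and 2.12-fold lower in *Rgs5*-high cells (-1.08, -1.24 to -0.93). In the chondrocyte gates the difference was small, with log2 ratios of -0.17 in *Cnmd*-high and -0.11 in *Col10a1*-high cells. *Ccn1* was lower at day 14 in all 6 gates but never by 2-fold, from -0.74 in *Aspn*-high and *Ifitm5*-high cells to -0.07 in *Rgs5*-high cells, where its interval held 0.

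**Figure D4:**
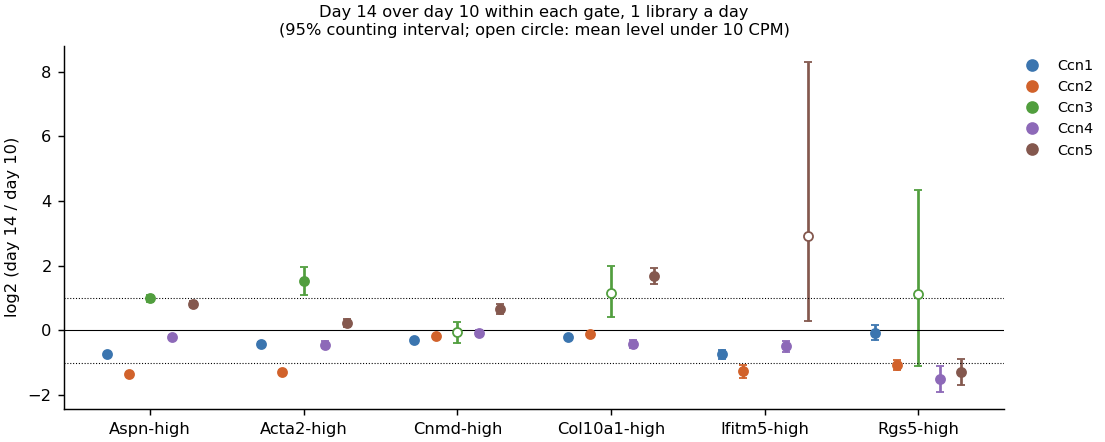
log2 ratio of day 14 over day 10 for each *Ccn* gene within each gate, with 95% counting intervals; dotted lines are 2-fold, and open circles mark a mean under 10 CPM. *Ccn2* (orange) lies below the lower line in the *Aspn*, *Acta2*, *Ifitm5*, and *Rgs5* gates and near 0 in the *Cnmd* and *Col10a1* gates.

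The 2 that were past 2-fold higher at day 14 were *Ccn3* in *Acta2*-high cells (log2 ratio 1.51, 95% CI, 1.08 to 1.96) and *Ccn5* in *Col10a1*-high cells (1.68, 1.43 to 1.94). With the 300 highest cells per gate the latter turned to -0.40. At day 10 *Ccn3* and *Ccn5* were 5.73 and 9.22 CPM in these gates, under 10 CPM. They passed the filter through day 14, so that they are higher follows in part from the filter. The remaining lower ones were *Ccn4* (-1.51) and *Ccn5* (-1.29) in *Rgs5*-high cells, a gate of 76 cells at day 10. *Ccn3* in *Aspn*-high cells lay just inside the limit (0.99, 0.88 to 1.10). The shares of all genes past 2-fold between the days were far smaller than between gates: 1.15% in the *Aspn* gate, 1.22% in the *Acta2* gate, 1.09% in the *Cnmd* gate, 1.58% in the *Col10a1* gate, 2.27% in the *Ifitm5* gate, and 4.83% in the *Rgs5* gate. The members past 2-fold were 1 of 5, 2 of 5, 0 of 4, 1 of 4, 1 of 3, and 3 of 4 in that order. Their median log2 ratios were -0.22, -0.42, -0.13, -0.15, -0.74, and -1.19, where all genes had medians between -0.06 and 0.01. Within cells of exactly 1 gate the count was 2 of 20 (*Ccn2* in the *Aspn* gate and *Ccn5* in the *Col10a1* gate), with *Ccn2* at -0.80 in the *Acta2* gate and -0.65 in the *Ifitm5* gate. With the level of the *Ptprc*-positive cells subtracted, *Ccn2* in the *Aspn* gate came to 0.74, but that subtraction rested at day 10 on 10 UMIs of *Ccn2* in 1 of 4 cells.

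Immediate early genes, the transcription factors and regulators induced within minutes of a stimulus, had lower summed levels at day 14 in all 6 gates. Summed over the 13 listed genes, the level in *Aspn*-high cells went from 6329 CPM to 4186 CPM. From day 10 to day 14 the same sum was 5103 and 3641 CPM in *Acta2*-high cells, 9302 and 5660 CPM in *Cnmd*-high cells, 9606 and 6704 CPM in *Col10a1*-high cells, 5558 and 3983 CPM in *Ifitm5*-high cells, and 7014 and 4888 CPM in *Rgs5*-high cells. Past 2-fold lower at day 14 were 4 of 13 in the *Aspn* gate, 1 in the *Acta2* gate, 0 in the *Ifitm5* gate, and 2 in the *Rgs5* gate, the gates where *Ccn2* was past 2-fold lower, and 5 in the *Cnmd* gate and 3 in the *Col10a1* gate, and none of the 13 was past 2-fold higher in any gate. The share of all genes past 2-fold lower was 0.916% in the *Aspn* gate, 0.642% in the *Acta2* gate, 1.58% in the *Ifitm5* gate, 2.22% in the *Rgs5* gate, 0.676% in the *Cnmd* gate, and 1.02% in the *Col10a1* gate. The summed level of 6 heat shock genes was higher at day 14 in the *Cnmd* gate (8925 and 14622 CPM), the *Col10a1* gate (9506 and 13227 CPM), and the *Ifitm5* gate (5751 and 10679 CPM), and came to 5224 and 5913 CPM in the *Aspn* gate, 5097 and 5388 CPM in the *Acta2* gate, and 11745 and 11630 CPM in the *Rgs5* gate. Of the 6, 1 was past 2-fold higher in each of the *Cnmd*, *Col10a1*, and *Ifitm5* gates, where 0.417%, 0.565%, and 0.686% of all genes were, and none in the other gates. Between gates, the median log2 ratio of the 13 immediate early genes over the other gated cells was 0.28 and 0.54 in the *Col10a1* gate, 0.35 and 0.19 in the *Cnmd* gate, and -0.64 and -0.64 in the *Aspn* gate. That of the 6 heat shock genes was 0.30 and 0.46, 0.59 and 0.90, and -0.82 and -1.42. Both medians were thus above 0 in the 2 gates with the most *Ccn1*. In the *Rgs5* gate, which had the least *Ccn1*, the heat shock median was 0.43 and -0.01 and the immediate early median -0.34 and -0.10. Both medians were below 0 at both days in the *Acta2* and *Ifitm5* gates. Both groups of genes respond to tissue dissociation, and their part in the levels of *Ccn1* and *Ccn2* was not tested.

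At the level of single cells, most gated cells showed 1 or 2 members at matched depth. After thinning to 2000 UMIs, 5551 gated cells remained at day 10 and 8012 at day 14, and 48 and 90 shallower cells were left out. Exactly 1 member was detected in 40.0% (95% CI, 38.7 to 41.3) of cells at day 10 and 40.5% (39.4 to 41.6) at day 14, and no member in 20.5% and 27.7%. A pair of members was found in 33.9% and 27.5%, 3 members in 5.33% and 3.96%, and 4 members in 0.288% and 0.287%, while 1 cell of day 14 showed 5. As deposited, without thinning, the share with exactly 1 member was 9.39% and 13.3%, so these shares hold for the matched depth only. At day 7, 44.8% (35.0 to 54.8) of 105 gated cells had exactly 1 member.

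**Figure D5:**
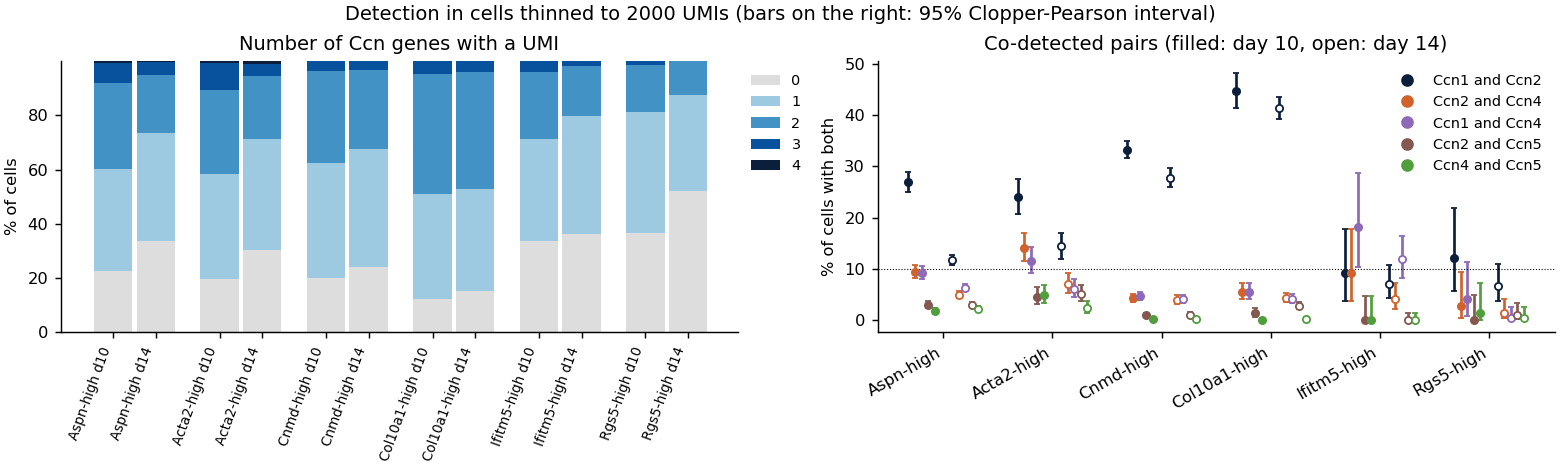
Detection in cells thinned to 2000 UMIs: left, stacked share of cells (%) by the number of *Ccn* genes with a UMI, per gate and day (the 1 cell with 5 is not drawn); right, share of cells (%) with both genes of 5 of the 10 pairs, with 95% Clopper-Pearson intervals, filled for day 10 and open for day 14, and a dotted line at 10%. *Ccn1* with *Ccn2* is the most frequent pair outside the *Ifitm5* gate, where *Ccn1* with *Ccn4* is.

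The most frequent single member was *Ccn1* or *Ccn2*, except in *Ifitm5*-high cells. In *Col10a1*-high cells, 19.7% at day 10 and 21.6% at day 14 had *Ccn2* only, and 17.4% and 13.6% had *Ccn1* only. In *Ifitm5*-high cells *Ccn4* was the most frequent single member, in 15.6% and 21.2% of cells, beside 13.0% and 15.6% for *Ccn1* and 9.09% and 6.69% for *Ccn2*. For *Ccn4* and *Ccn1* these were 12 and 10 of 77 cells at day 10, a small difference, and 57 and 42 of 269 at day 14. *Aspn*-high cells had *Ccn1* only in 17.3% and 16.9% of cells and *Ccn2* only in 14.1% and 9.68%. *Ccn3* was the only member in 0.139% and 2.63% of *Aspn*-high cells, and *Ccn5* in 1.77% and 4.01%. Of the cells with *Ccn3* in any gate, 5.26% of 76 at day 10 and 34.6% of 327 at day 14 showed no other member. *Rgs5*-high cells most often showed no member, in 36.5% and 52.1%, and their median of 12522 and 9202 UMIs before thinning was the lowest of the gates. Next were *Ifitm5*-high cells with 33.8% and 36.1%. At day 10 the counts were close, 27 of 74 *Rgs5*-high and 26 of 77 *Ifitm5*-high cells.

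Of 60 combinations of 6 gates and 10 pairs, 8 at day 10 and 5 at day 14 had both members in at least 10% of cells. *Ccn1* with *Ccn2* passed in the *Aspn* (26.9% and 11.6%), *Acta2* (23.9% and 14.4%), *Cnmd* (33.3% and 27.8%), and *Col10a1* (44.7% and 41.4%) gates at both days, and in the *Rgs5* gate at day 10 with 9 of 74 cells. *Ccn1* with *Ccn4* passed in the *Ifitm5* gate, 18.2% (95% CI, 10.3 to 28.6) and 11.9% (8.28 to 16.4), intervals that held the products of the separate shares (14.2% and 11.8%). *Ccn2* with *Ccn4* (14.1%) and *Ccn1* with *Ccn4* (11.5%) passed in the *Acta2* gate at day 10, where the values at day 14 were 7.06% and 6.01%. Across all gated cells, *Ccn1* with *Ccn2* was found in 31.5% (30.2 to 32.7) at day 10 and 21.3% (20.4 to 22.2) at day 14, where the product of their separate shares was 28.3% and 17.6%. Within the *Col10a1* gate the products were 42.8% and 38.1%, the first inside the interval of the measured share (41.4 to 48.2) and the second below it (39.2 to 43.5). In the *Aspn* gate the products, 23.6% and 9.63%, lay below the intervals (25.1 to 28.9 and 10.7 to 12.6). So did those of the *Cnmd* gate, 30.7% and 25.2% (31.7 to 35.0 and 25.9 to 29.7). In the *Acta2*, *Ifitm5*, and *Rgs5* gates the intervals held the products at both days. *Ccn3* with *Ccn5*, both past 2-fold higher in the *Aspn* gate, were found together in 4 of 5551 cells at day 10 and 30 of 8012 at day 14, or 0.0721% and 0.374%, where the products were 0.0575% and 0.308%. Within the *Aspn* gate the shares were 0.0929% (0.0113 to 0.335) at day 10 and 0.700% (0.470 to 1.00) at day 14, and their intervals held the higher products, 0.195% and 0.840%.

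Other targets of YAP/TAZ-TEAD were counted in the same gates. Of 22 listed targets without the members, 17 passed the filter on both days in the *Cnmd* and *Col10a1* gates. In *Cnmd*-high cells none of the 17 was past 2-fold higher at both days and 6 were past 2-fold lower, and in *Col10a1*-high cells 1 was higher, *Crim1* (log2 ratios 1.79 and 1.99), and 6 were lower. Over all genes, 2.58% were higher and 7.23% lower at both days in the *Cnmd* gate, and 3.70% and 6.24% in the *Col10a1* gate. In *Aspn*-high cells 5 of 17 were higher and 1 lower, against 7.39% and 3.39% of all genes. For *Acta2*-high cells these were 2 of 18 and 1, against 4.74% and 3.61%. *Ifitm5*-high cells, where *Ccn2* was lowest, had 0 of 15 higher and 3 lower, against 3.72% and 8.81%. In *Rgs5*-high cells, where *Ccn1* was lowest, 7 of 18 were higher and 2 lower, against 10.4% and 6.46% of all genes. *Axl*, a receptor tyrosine kinase, was the strongest of these with log2 ratios of 3.47 and 2.92, and *Nt5e*, the ectonucleotidase CD73, was lower with -4.37 and -2.79. The median log2 ratio of the list was -0.39 and -0.76 in the *Col10a1* gate and 0.71 and 0.94 in the *Rgs5* gate, against all-gene medians of -0.10 and -0.18 and of 0.19 and 0.18. *Igfbp3*, an IGF-binding protein, was higher in *Aspn*-high cells (2.19 and 2.90) and lower in *Col10a1*-high cells (-3.60 and -3.54). Some of these genes passed the filter through the group in which they were high, so the counts follow in part from it. *Axl* was under 10 CPM at both days inside the *Cnmd* and *Col10a1* gates and outside the *Aspn* gate. *Igfbp3* was under 10 CPM inside the *Col10a1* gate and, at day 14, outside the *Aspn* gate. *Nt5e* was 4.96 CPM in the *Rgs5* gate at day 10. Of 14 Hippo pathway genes, 1 of 11 tested was higher in *Aspn*-high cells, where 7.39% of all genes were, and 1 of 12 in *Acta2*-high cells, where 4.74% were. In both gates it was *Vgll3*, a TEAD cofactor (2.16 and 2.73 in the *Aspn* gate, 2.41 and 1.49 in the *Acta2* gate). Outside the *Aspn* gate *Vgll3* was 7.18 and 6.71 CPM. It passed the filter there through the gate, so that count follows in part from the filter.

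The Wnt and TGF-beta lists were set beside *Ccn4* and *Ccn2*. Of 11 Wnt/beta-catenin target genes, 9 did not pass the filter in *Ifitm5*-high cells, the gate where *Ccn4* was highest. The other two passed through their level in that gate, so that they are higher there follows in part from the filter. They were *Tcf7*, a Wnt effector and target (79.1 CPM against 3.09 CPM in the other gated cells at day 10, and 83.6 against 2.72 CPM at day 14), and *Notum*, a Wnt deacylase (29.5 against 8.93 CPM and 34.9 against 7.81 CPM). In *Aspn*-high cells *Nkd1* and *Nkd2*, feedback inhibitors of Wnt signaling, had log2 ratios of 1.22 and 1.92 and of 1.78 and 2.00, and they too passed the filter through the gate in which they were high. Of 10 TGF-beta response genes, 3 were higher and 2 lower at both days in *Aspn*-high cells, where 7.39% of all genes were higher and 3.39% lower, with *Ltbp2* at 3.46 and 3.20 and *Smad7*, an inhibitory Smad, at -1.76 and -1.58. *Ltbp2* was 5.81 and 8.47 CPM in the other gated cells. It passed the filter through the *Aspn* gate, which in part fixes the count of higher genes. In *Col10a1*-high cells 1 was higher and 3 were lower, where 3.70% and 6.24% of all genes were, among the lower *Tgfbi* (-2.29 and -2.79) and *Col1a1* (-1.40 and -2.08). *Ltbp2* was also lower, at 3.76 and 9.68 CPM in this gate, and passed the filter through the other gated cells.

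Receptors and co-receptors for CCN proteins formed a list of 12. In *Col10a1*-high cells, *Itgb3*, a subunit of the integrin alpha-v beta-3 that binds CCN1 and CCN2, was 32.7 CPM against 5.20 CPM in the other gated cells at day 10 and 36.5 against 5.76 CPM at day 14. *Itga6* was also higher there (log2 ratios 1.13 and 1.36), so 2 of 9 tested were higher and none lower at both days, where 3.70% of all genes were higher and 6.24% lower. *Itgb3* at both days, and *Itga6* at day 14, were under 10 CPM in the other gated cells and passed the filter through this gate, which in part fixes that count. In *Cnmd*-high cells *Itgb3* was lower (-3.46 and -2.77), as was *Itgb5* (-1.42 and -1.48), and *Sdc4*, the heparan sulfate co-receptor syndecan-4, was higher (1.14 and 1.07). *Itgb3* was 2.02 and 2.91 CPM in the *Cnmd* gate. It passed the filter through the other gated cells, so that it is lower follows in part from the filter. In *Acta2*-high cells *Itga5* (1.75 and 1.41) and *Notch1* (20.04 against 7.08 CPM in the other gated cells at day 10 and 15.5 against 6.56 CPM at day 14) were higher and *Sdc4* (-1.62 and -1.36) was lower, 2 of 9 higher and 1 lower, where 4.74% of all genes were higher and 3.61% lower. *Notch1* passed the filter through the *Acta2* gate, which in part fixes the count of higher genes. *Rgs5*-high cells had more *Notch1* (2.75 and 2.69) and *Itgav* (1.56 and 1.67) and less *Sdc4* (-5.20 and -2.41), 3 of 10 higher and 1 lower, where 10.4% of all genes were higher and 6.46% lower. Here too *Notch1* was under 10 CPM in the other gated cells, at 7.95 and 6.69 CPM. It passed the filter through the *Rgs5* gate, which in part fixes the count of higher genes. The sixth family gene, *Ccn6*, stayed at or under 4.34 CPM in every gate and was highest in *Cnmd*-high cells, with 266 UMIs at day 10 and 152 at day 14.

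Likeness of pattern was measured as Pearson's r of log2(CPM + 10) over the 13 combinations of gate and day with at least 50 cells, among 4117 genes that reached 50 CPM in one of them. These 13 points share cells, libraries, and the genes that define the gates, so r is given as a description. The genes most like *Ccn1* were *Ptgs2os* (r = 0.92), *Ptgs2*, the inducible cyclooxygenase (0.92), and *Pole3* (0.92). Those most like *Ccn2* were *Sgk1*, a stress-inducible kinase (0.87), *Stard4* (0.86), and *Jmjd6* (0.85), all 3 highest in *Col10a1*-high cells of day 10. *Angptl1* (0.92), *Mfap4*, a microfibril protein (0.90), and *Gas6*, the ligand of *Axl* (0.89), were most like *Ccn3* and peaked in *Aspn*-high cells of day 14. *Slc35b1* (0.93), *Pcdh7* (0.92), and *Nrp2* (0.92) were most like *Ccn4*, and *Ly6a*, which encodes SCA-1 (0.97), *Vti1b* (0.97), and *Tln2*, a talin (0.97), were most like *Ccn5*. Among the members themselves, *Ccn1* with *Ccn2* (r = 0.64) and *Ccn3* with *Ccn5* (0.60) were the most alike, and *Ccn2* with *Ccn4* (-0.57) and *Ccn1* with *Ccn5* (-0.54) the least.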

How the data were processed

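Per the deposited files, each library is a matrix of whole UMI counts per gene and cell, made by the authors with Cell Ranger and not normalized. The submitters' processing notes name Cell Ranger 3.0 and mm10, and the study's methods name a later version. The labels and the study's methods also name different versions of the 3′ kit. Cells with 500 to 5000 genes, at most 10% mitochondrial, and at most 5% hemoglobin UMIs (the study's limits) were kept, 7017, 6593, and 9853 at day 7, day 10, and day 14 of 9103, 8801, and 12984 deposited, with 55187609, 113618580, and 154573230 UMIs. Counts were summed over the cells of a gate and given as CPM with exact Poisson 95% intervals, ratios with exact binomial intervals, and shares of cells with Clopper-Pearson intervals after thinning to 2000 UMIs without replacement (seed 1, 1 draw per library). PCR duplicates are collapsed in UMIs, and the intervals cover counting error only. A gene with 0 UMIs in a group was set to a floor of 3 counts per group. Gates under 50 cells, or left with fewer once shared cells were removed, entered no comparison in the text. The scripts were checked on simulated data and used Python 3.11.15 with numpy 2.4.6, scipy 1.17.1, pandas 2.3.3, and matplotlib 3.10.9.

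The members, gates, and gene lists were chosen with earlier results of these data known. Genes named beside the members were the 3 most like each member and, per list and gate, up to 3 with the largest mean log2 ratio past 2-fold in the same direction on both days. From these the text names examples, chosen after their values were seen. Alternatives were other gate thresholds and cell limits, other scaling, free RNA subtraction, no filter on low values, and other thinning. Leaving out each member's highest cell was added after seeing the data.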

Additional observations from a re-analysis of the deposited data

Results flagged for a closer look

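In 2 gates a member lay above the other gated cells on one day and below them on the other, with counting intervals that did not reach 0. *Ccn2* in *Acta2*-high cells had log2 ratios of 0.23 at day 10 and -0.69 at day 14, and *Ccn4* in *Rgs5*-high cells had 0.62 and -0.84. *Ccn2* was 850 and 348 CPM in *Acta2*-high cells and 724 and 563 CPM in the other gated cells. *Ccn4* was 117 and 41.0 CPM in *Rgs5*-high cells and 76.1 and 73.4 CPM in the other gated cells. The cells compared with also differ in composition, since *Col10a1*-high cells went from 867 to 2128, and the part of this was not tested. With 1 library a day the difference between the days was not tested.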

How the results depend on the processing

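Of the 40 ratios past 2-fold, the share kept past 2-fold in the same direction was 40 of 40 with neutrophil genes under 2% of UMIs and with no filter on low values, 38 of 40 at 500 CPM, with the scaling that left out mitochondrial, hemoglobin, and the 20 most abundant genes, as a mean over cells, and without the highest cell, and 35 of 36 at 2000 CPM. It was 36 of 40 with free RNA subtracted, 32 of 40 without an upper limit on genes, 31 of 40 without limits on cells, 31 of 35 in exactly 1 gate, and 29 of 40 with the 300 highest cells. That scaling shifted every log2 ratio of a gate by -0.14 to 0.16. Leaving out the filter on low values can remove no ratio, so its 40 of 40 was fixed beforehand. The largest move under the neutrophil limit was 0.0047 in log2, so that alternative tested little.

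The sign turned for *Ccn2* between the days with free RNA subtracted, to 0.74 in the *Aspn* gate, 8.89 in the *Ifitm5* gate, and 1.04 in the *Rgs5* gate, where the subtraction at day 10 rests on 4 cells. It also turned for *Ccn5* in the *Col10a1* gate between the days with the 300 highest cells (-0.40), and the cause was not tested. The count of members past 2-fold at day 10 was 9 with the 300 highest cells. The count between the days was 5 at 2000 CPM, 2 in exactly 1 gate, and 5 without limits on cells, where 21, 20, and 24 combinations could be compared. The count of co-detected combinations at day 10 and day 14 was 24 and 20 when thinned to 5000 UMIs and 28 and 31 unthinned. The share of cells with exactly 1 member was 24.8% and 29.1% when thinned to 5000 UMIs, 9.39% and 13.3% unthinned, and 41.8% at day 14 with the 300 highest cells. No paired analysis was possible because each day is 1 library with no replicate number, and for the same reason no replicate could be left out. Depth limits *Ccn3* and *Ccn5* in the *Ifitm5* gate (0 to 23 UMIs) and *Ccn3* in the *Rgs5* gate (2 and 10 UMIs).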

Other observations

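Part of each member's transcripts lay outside the gates. *Ptprc*-negative cells in no gate, 988 at day 10 and 1578 at day 14, held 18.6% and 15.2% of all *Ccn4* UMIs within the limits and had *Ccn4* at 113 and 78.5 CPM, where *Aspn*-high cells had 116 and 99.7 CPM. They held 11.4% and 13.2% of *Ccn2* and 11.9% and 3.75% of *Ccn3*. At day 7, 41.8% of *Ccn2* UMIs were in the 340 *Ptprc*-negative cells outside the gates and 27.7% in the 6570 *Ptprc*-positive cells. Cells above the upper limit of 5000 genes, which no gate uses, had *Ccn2* at 635 CPM in 741 cells of day 10 and at 423 CPM in 945 cells of day 14. In 25 *Aspn*-high cells of day 7, *Ccn3* was 115 CPM (95% CI, 85.6 to 152), with 96.0% of its UMIs in the highest 10% of the cells.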
